A study of Mus musculus with 12 samples.

Results

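Expression of 10 genes of arginine, nitric oxide and polyamine metabolism was examined in BMDMs, macrophages that were derived in culture from the bone marrow of mice. The genes were Slc7a2, Arg1, Arg2, Nos2, Ass1, Asl, Odc1, Azin1, Srm and Sat1. They were taken by symbol from the 23361 gene symbols in the expression tables, and each had a single row. Expression was given as FPKM (fragment numbers scaled by transcript length and by the total mapped in the sample), a unit corrected for length, so that levels of different genes can be set side by side. The 12 samples were poly-A RNA-seq libraries, 3 in each of 4 groups, from wild-type mice of the C57BL/6 background aged 8 to 12 weeks, whose marrow cells had been differentiated with L929 cell supernatant, a source of M-CSF. Control cells received no stimulus. The IL-4 group received IL-4 at 20 ng/ml for 24 h, the LPS group received LPS at 100 ng/ml for 3 h, and the IL-4+LPS group received IL-4 for 24 h before LPS for 3 h. IL-4 is the cytokine used to polarize macrophages toward the alternative state, and LPS, from the outer membrane of Gram-negative bacteria, sets off the inflammatory response. Per the study, the samples came from 3 animals in 2 independent experiments, but the labels do not tie a replicate number to an animal, so the p-values measure the spread between these samples, part of which may be technical. The comparisons ask how each stimulus alone, and LPS after IL-4, changed the transcripts that govern the use of arginine.

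Arginine enters macrophages through cationic amino acid transporters such as the product of Slc7a2. Inside the cell it is split by arginases into ornithine and urea, or oxidized by nitric oxide synthases to nitric oxide and citrulline, and the balance between arginase 1 and inducible nitric oxide synthase is the classical contrast between alternatively and classically activated macrophages. Citrulline is returned to arginine by argininosuccinate synthase and argininosuccinate lyase. Ornithine feeds ornithine decarboxylase, whose product putrescine is turned into spermidine and spermine, and these polyamines are exported or degraded after acetylation.

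FPKM totals lay between 457583 and 495025 per sample. Relative depth, read from the steps between low values with control replicate 1 set to 1, ran from 0.990 to 3.28. All 7 macrophage markers examined were present, and their summed level was 19950 to 21250 FPKM in control, 8214 to 8440 in IL-4, 15990 to 17180 in LPS and 6920 to 7330 in IL-4+LPS samples. Lyz2 alone made up most of this sum and of its fall with IL-4, with means of 16120 FPKM in control and 4873 with IL-4. The other macrophage markers also had lower means with IL-4. Control and IL-4 means were 1003 and 454 FPKM for Emr1, 909 and 629 for Csf1r, and 31.9 and 11.3 for Mertk. They were 234 and 165 FPKM for Itgam, 1779 and 1538 for Cd68, and 745 and 671 for Fcgr3. All 5 fibroblast and all 4 erythroid markers stayed under 1 FPKM in each sample, as did 4 of the 5 T cell, 3 of the 4 B cell and 3 of the 4 mast cell and basophil markers. Of 7 neutrophil and granulocyte precursor markers 6 had a row, and their sum was 77.8 to 170.3 FPKM in control, 29.1 to 78.0 in IL-4, 85.6 to 207 in LPS and 63.0 to 146 in IL-4+LPS samples. The macrophage sum was lower in each IL-4 sample than in any control sample, the granulocyte ranges of these groups met at their ends, and the part of either in the results below was not tested. Replicate 1 stood apart from replicates 2 and 3 in every group. Pearson r within a group was 0.954 to 0.962 in pairs with replicate 1 and 0.973 to 0.983 in the other pairs. Replicate 1 was the lowest of its group in all 4 groups for Slc7a2, Odc1 and Srm, and the highest in all 4 for Arg1 and Sat1. Results whose call depends on replicate 1 are therefore given with and without it. Without replicate 1, only replicates 2 and 3 of each group were fitted. The labels do not say whether these came from the same experiment, so such p-values may measure a narrower spread.

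Differences were tested with limma on log2(FPKM + 1) over the 11191 rows with at least 1 FPKM in at least 1 sample, and a gene was called at a Benjamini-Hochberg adjusted p under 0.05. All 10 genes passed this filter. Arg1 passed it only through the samples given IL-4, Arg2 and Nos2 only through those given LPS, and Slc7a2 only through those given either stimulus or both. A difference of these genes, for Slc7a2 that from control, is thus partly built into the filter, and their number is no support for a result. With IL-4 alone 4 of the 10 were higher than control, where 16% of all rows were higher, and 0 were lower, where 21% of all rows were lower (0 also at an unadjusted p under 0.05). With LPS alone 5 were higher than control against 16.9% of all rows, and 1 was lower against 57.7%. When LPS was added after IL-4, 3 were higher than with IL-4 alone against 15% of all rows, and 5 were lower against 57.9%. In LPS-exposed cells, 2 were higher with IL-4 pretreatment than without it against 15% of all rows, and 3 were lower against 15.8%. The interaction, the difference between the LPS response of IL-4-pretreated cells and that of untreated cells, was called above 0 in 0 of the 10 (0 also at an unadjusted p under 0.05) and called below 0 in 2, against 4.58% and 4.63% of all rows. The comparisons share groups of samples and are not independent of each other. LPS lowered the median of all rows by 0.44 on the log2 scale without IL-4 and by 0.41 after IL-4, so a gene with a difference of 0 stood above most others. Of all calls for LPS against control 22.6% were increases, and this share was 40.2% after quantile normalization and 39.97% after median scaling. For LPS after IL-4 the corresponding shares were 20.6%, 37.1% and 39.3%.

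**Figure D1:**
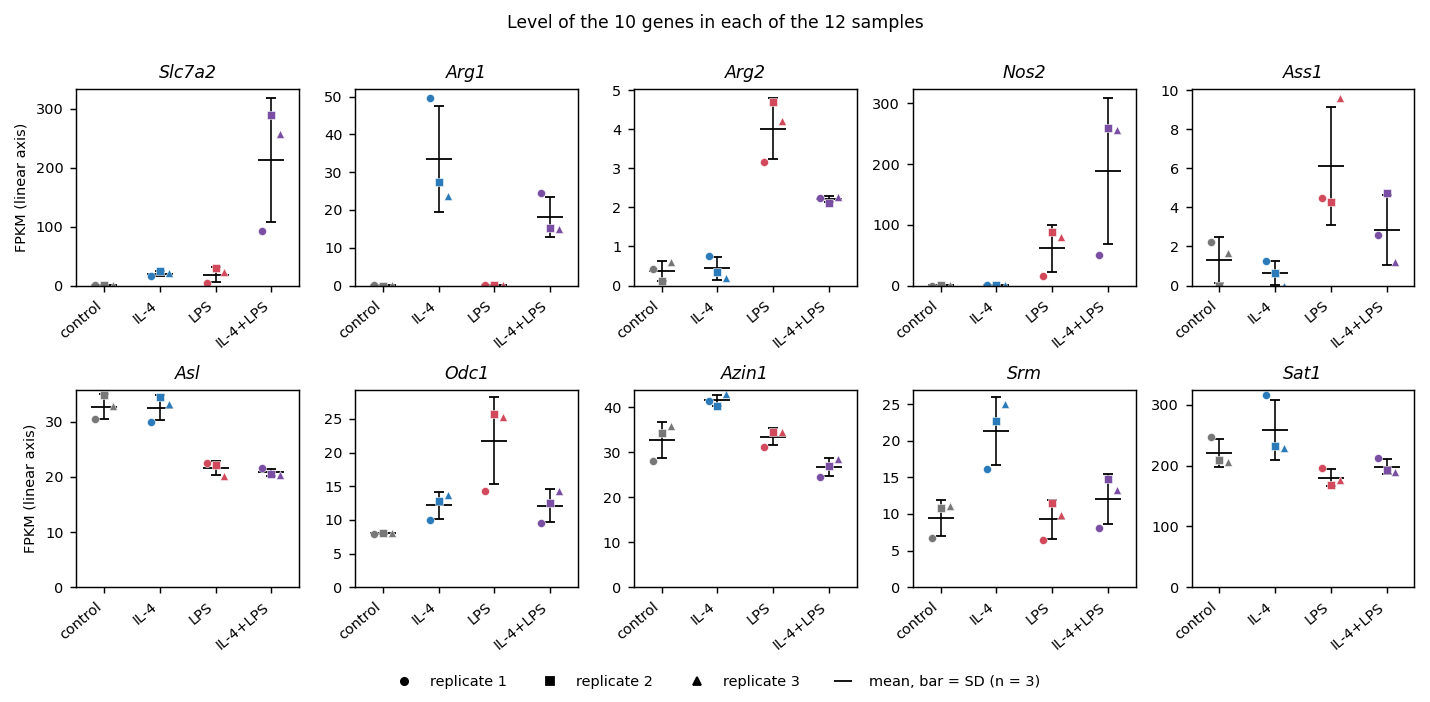
FPKM (linear axes, each starting at 0) of the 10 genes in each of the 12 samples, with circles, squares and triangles for replicates 1, 2 and 3, and horizontal lines and bars for the mean and SD (n = 3). Slc7a2 and Nos2 reach their highest means, 213 and 189 FPKM, with IL-4 followed by LPS, whereas Arg1 and Srm are highest with IL-4 alone and Arg2 and Odc1 with LPS alone.

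Slc7a2, which encodes the inducible cationic amino acid transporter CAT2, rose with each stimulus and by far the most with both. It lies on the plus strand of chromosome 8 at 40862367 to 40922070 (mm10), where a long noncoding RNA, Gm26584, overlaps it on the other strand. Its level was 0.200, 0.790 and 0.411 FPKM in control replicates 1 to 3, and 15.4, 24.4 and 21.3 FPKM with IL-4. With LPS alone it was 3.86, 29.1 and 22.4 FPKM, and with LPS after IL-4 it was 92.4, 289 and 257 FPKM. The control samples were the lowest 3 of the 12 and the IL-4+LPS samples the highest 3, with the IL-4 and LPS groups overlapping in between. The difference from control in log2(FPKM + 1) was 3.86 ± 0.63 (SE) with IL-4 (limma, adjusted p = 0.000873) and 3.38 ± 0.63 with LPS (adjusted p = 0.000566). IL-4 pretreatment added 3.67 ± 0.63 to the level with LPS (adjusted p = 0.00137), and LPS added 3.19 ± 0.63 to the level with IL-4 (adjusted p = 0.000933). The interaction was -0.19 ± 0.89 (adjusted p = 0.934), but its size depended on the settings, with -1.498 ± 1.01 at a pseudocount of 0.1 (adjusted p = 0.451) and -0.54 without replicate 1 (adjusted p = 0.134), and it was called under neither. Without replicate 1 the 4 differences were 3.90, 4.06, 3.37 and 3.52, in the order IL-4 against control, LPS against control, and the effects of IL-4 and of LPS in doubly exposed cells, and each was called.

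The other arginine transporters on a list of 51 pathway genes moved differently. Slc7a1, the constitutive transporter CAT1, rose from 2.31 ± 0.540 FPKM (SD, n = 3) in control to 5.47 ± 0.284 with IL-4 and 6.23 ± 0.908 with LPS, and reached 7.38 ± 0.195 with both. Its response to LPS was 1.13 ± 0.13 in log2(FPKM + 1) without IL-4 (adjusted p = 1.48e-05) and 0.37 ± 0.13 after IL-4 (adjusted p = 0.0213), an interaction of -0.76 ± 0.18 (adjusted p = 0.0256). That interaction was not called when any of IL-4 replicates 1, 2 or 3, LPS replicates 2 or 3, or IL-4+LPS replicates 2 or 3 was left out (adjusted p of 0.0538 to 0.0706), and the response after IL-4 was not called without IL-4 replicate 2 or 3 or IL-4+LPS replicate 1 (adjusted p of 0.0507 to 0.0647). Slc7a7, a light chain of the exchanger that releases cationic amino acids in return for neutral ones, fell from 15.1 ± 0.471 FPKM to 3.88 ± 0.636 with IL-4 and rose to 34.0 ± 4.53 with LPS. After IL-4 and LPS it was at 8.28 ± 1.43 FPKM, below LPS alone (-1.92 ± 0.14 on the log2 scale, adjusted p = 3.63e-06). Slc3a2, the heavy chain that pairs with it, was at 137 ± 3.41 FPKM in control and 124 ± 9.39 FPKM with LPS, and was called in none of the 5 comparisons.

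Arg1, which encodes the cytosolic arginase that marks alternatively activated macrophages, was high only in the samples given IL-4, and LPS after IL-4 lowered it. The gene lies on the minus strand of chromosome 10 at 24915207 to 24927470. It was listed at 0.261, 0 and 0.0396 FPKM in control and at 0.190, 0.0250 and 0.0456 FPKM with LPS. With IL-4 it stood at 49.6, 27.3 and 23.6 FPKM, and with IL-4 and LPS at 24.4, 15.2 and 15.1 FPKM. Both groups without IL-4 thus stayed under 1 FPKM, and within each number the doubly exposed sample was lower than its IL-4 counterpart, at 0.491, 0.557 and 0.637 of its level, although the ranges of the 2 groups overlapped. The increase with IL-4 was 4.90 ± 0.26 in log2(FPKM + 1) (adjusted p = 4.37e-07), and that of IL-4 pretreatment in LPS-exposed cells was 4.11 ± 0.26 (adjusted p = 1.50e-06). LPS alone gave -0.01 ± 0.26 (adjusted p = 0.968). Adding LPS to IL-4 lowered it (-0.81 ± 0.26, adjusted p = 0.0160), which was -0.71 without replicate 1 (adjusted p = 0.000207). This decrease was not called without IL-4+LPS replicate 2 (-0.70, adjusted p = 0.0587) or replicate 3 (-0.69, adjusted p = 0.0603), with median scaling (-0.46, adjusted p = 0.148), quantile normalization (-0.63, adjusted p = 0.0628) or a pseudocount of 0.1 (-0.84, adjusted p = 0.144), with no filter (adjusted p = 0.0517) or in a fit of these 2 groups alone (adjusted p = 0.0644). The interaction was -0.79 ± 0.36 (adjusted p = 0.217), and it was called without replicate 1 (-0.73, adjusted p = 0.00586). In bulk RNA fewer expressing cells and less transcript per cell cannot be told apart.

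Arg2, which encodes the mitochondrial arginase, was a low transcript that rose with LPS both without and after IL-4, with a lower level when IL-4 had come first. It occupies chromosome 12 at 79130788 to 79156301 on the plus strand, overlaps the antisense gene Gm48780 and the end of Vti1b, and the libraries do not mark strand. Control samples had 0.413, 0.103 and 0.605 FPKM and IL-4 samples 0.761, 0.348 and 0.197 FPKM. LPS samples had 3.16, 4.70 and 4.20 FPKM, and IL-4+LPS samples 2.23, 2.12 and 2.27 FPKM. The LPS, IL-4+LPS and unexposed samples formed 3 ranges that did not overlap. The difference was 1.87 ± 0.18 for LPS against control (adjusted p = 4.05e-06), 1.18 ± 0.18 for LPS after IL-4 (adjusted p = 0.000143) and -0.63 ± 0.18 for IL-4+LPS against LPS (adjusted p = 0.0201). The last was not called without LPS replicate 2 or 3 or without IL-4+LPS replicate 2 or 3 (-0.54 to -0.65, adjusted p of 0.0502 to 0.0745), nor with a pseudocount of 0.1 (adjusted p = 0.207). The interaction of -0.69 ± 0.25 was not called (adjusted p = 0.116).

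Nos2, which encodes the inducible nitric oxide synthase, stayed under 1 FPKM without LPS and was higher in every IL-4+LPS sample than in the LPS sample of the same number. The gene is on the plus strand of chromosome 11 at 78920859 to 78960124. Control samples were at 0, 0.296 and 0.0933 FPKM and IL-4 samples at 0.133, 0.0494 and 0.0631 FPKM. LPS alone gave 16.3, 87.8 and 79.7 FPKM, and LPS after IL-4 gave 50.5, 260 and 256 FPKM. Replicate 1 was several times lower than replicates 2 and 3 in both LPS-exposed groups, so that the groups overlapped, whereas the ratio of IL-4+LPS to LPS within a number was 3.10, 2.96 and 3.22. LPS raised it by 5.47 ± 0.68 in log2(FPKM + 1) without IL-4 (adjusted p = 3.24e-05) and by 7.13 ± 0.68 after IL-4 (adjusted p = 5.59e-06). The effect of IL-4 pretreatment in LPS-exposed cells, 1.60 ± 0.68, was not called in the fit without pairing (adjusted p = 0.103). With the replicate number as a block it was called (adjusted p = 0.0349). It was also called without replicate 1 (1.62, adjusted p = 3.25e-05) and without the IL-4+LPS sample of replicate 1 alone (2.38, adjusted p = 0.0108). The interaction was 1.66 ± 0.96 over all samples (adjusted p = 0.345) and was not called with the replicate block either (adjusted p = 0.149). It was called only without replicate 1 (1.79, adjusted p = 0.000330).

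**Figure D2:**
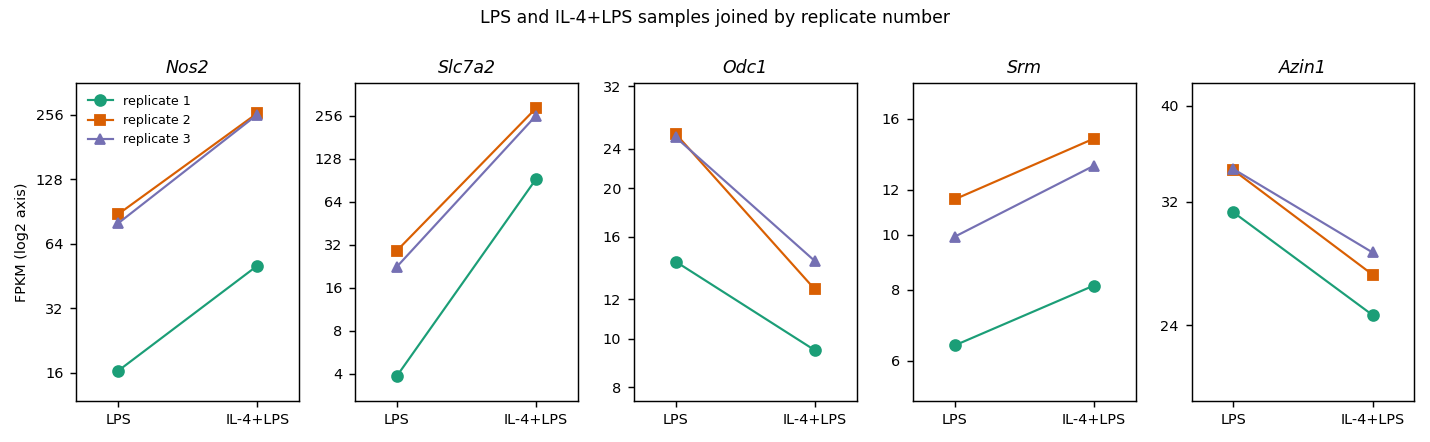
FPKM (log2 axes) of Nos2, Slc7a2, Odc1, Srm and Azin1 in the LPS and IL-4+LPS samples, joined by replicate number. All 3 lines rise for Nos2, Slc7a2 and Srm and fall for Odc1 and Azin1, and the replicate 1 line is the lowest in each panel.

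The balance of the 2 arginine-consuming enzymes was taken within each sample as log2 of (Arg1 FPKM + 1) over (Nos2 FPKM + 1). It was -0.037 ± 0.356 (SD, n = 3) in control, 4.92 ± 0.497 with IL-4, -5.52 ± 1.44 with LPS and -3.01 ± 1.72 with IL-4 and LPS. In control both genes were under 1 FPKM, as were Nos2 with IL-4 and Arg1 with LPS. The size of these values thus depends on the added 1. Of the LPS-exposed samples all 6 lay below 0, with values of -3.86, -6.44 and -6.27 after LPS alone and -1.02, -4.01 and -4.00 after IL-4 and LPS. In doubly exposed cells Nos2 thus exceeded Arg1 in every sample, although Arg1 was still present. The ratio differed by 4.96 between IL-4 and control, by -5.49 between LPS and control and by -7.93 between IL-4+LPS and IL-4, with an exact two-sided permutation p of 0.1 each, which is the smallest that 3 samples against 3 can give. IL-4+LPS and LPS overlapped (difference 2.51, exact permutation p = 0.3, range 1.52 to 3.34 with 1 sample left out). Within replicate numbers, which the labels do not tie to animals, the difference was 2.84, 2.43 and 2.27, above 0 in 3 of 3 numbers. If the numbers pair the samples, the exact two-sided paired permutation p was 0.25, the smallest that 3 pairs can give. With 0.1 added to each FPKM in place of 1, the differences between groups were 7.68, -7.93, -10.55 and 5.05, in the order given above.

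Ass1 and Asl encode the enzymes that rebuild arginine from citrulline, and the Ass1 locus needs its sequence to be read. The row named Ass1 covers chromosome 2 from 31470270 to 31520670 on the plus strand, and a second row of the tables, Gm5424, is placed from 31470308 to 31520629, covering 99.8% of it. GENCODE vM21 instead puts Gm5424, an intronless processed pseudogene of Ass1, on chromosome 10 at 62071123 to 62072362. The pseudogene carries the 1236 coding bases of Ass1, which are spread over 14 coding exons, with 99.5% identity and 6 differing bases. Of all 50-base words of the longest Ass1 transcript, 55.3% also occur in it. A stretch of 150 bases, from base 374 to 523 of the Ass1 coding sequence, is shown beside the pseudogene at chr10:62071496-62071645 (plus strand, mm10). It shows how few bases differ between these 2 sequences. The 2 rows are both placed on chromosome 2, and how reads were divided between them was not tested. Capitals mark the 3 bases that differ.
Ass1: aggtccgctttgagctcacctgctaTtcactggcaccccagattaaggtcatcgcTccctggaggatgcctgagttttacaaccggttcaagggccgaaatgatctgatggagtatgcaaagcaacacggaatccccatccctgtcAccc
Gm5424: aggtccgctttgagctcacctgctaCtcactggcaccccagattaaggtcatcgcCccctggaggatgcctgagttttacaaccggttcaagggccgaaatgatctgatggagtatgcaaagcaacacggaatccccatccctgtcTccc

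The 2 rows traded values between samples, and their sum was steady within each group. Ass1 was listed at 2.25, 1.43e-05 and 1.65 FPKM in control, 1.23, 0.640 and 1.16e-05 with IL-4, 4.45, 4.25 and 9.59 with LPS, and 2.58, 4.75 and 1.21 with both. Gm5424 stood at 0.824, 2.82 and 0.895 FPKM in control, 1.12, 1.72 and 2.02 with IL-4, 12.0, 14.7 and 10.3 with LPS, and 4.68, 1.10 and 5.34 with both. Where one was the lowest of its group the other was the highest in each of the 4 groups. The sum was 2.81 ± 0.267 FPKM (SD, n = 3) in control, 2.24 ± 0.193 with IL-4, 18.4 ± 1.76 with LPS and 6.55 ± 0.699 with both. For the Ass1 row alone limma called the LPS response without IL-4 (1.71 ± 0.51, adjusted p = 0.0102) and no other comparison, with 1.21 ± 0.51 for LPS after IL-4 (adjusted p = 0.0506), which was called after median scaling (1.40, adjusted p = 0.0317) and quantile normalization (1.59, adjusted p = 0.0101). The sum was examined after the values had been seen. It rose with LPS by 2.35 ± 0.10 without IL-4 (adjusted p = 1.60e-08) and by 1.22 ± 0.10 after IL-4 (adjusted p = 1.73e-06). IL-4 pretreatment lowered it in LPS-exposed cells (-1.36 ± 0.10, adjusted p = 3.71e-06), and its interaction was -1.13 ± 0.14 (adjusted p = 0.000904). In LPS-exposed cells the sum was thus lower after IL-4 pretreatment, whereas Nos2, the source of citrulline, was higher in each numbered pair.

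**Figure D3:**
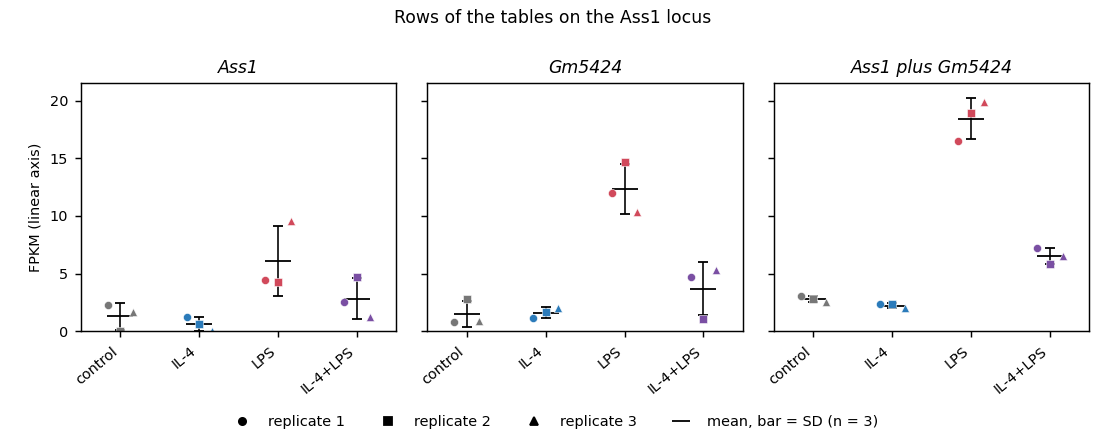
FPKM (shared linear axis starting at 0) of the rows Ass1 and Gm5424 and of their sum in each sample, with symbols by replicate and lines and bars for mean and SD (n = 3). The single rows scatter within groups, whereas the sum is tight, between 16.5 and 19.9 FPKM with LPS and between 5.85 and 7.25 FPKM with IL-4 and LPS.

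Asl, whose product releases arginine from argininosuccinate, fell with LPS to nearly the same level with and without IL-4. It is encoded on the minus strand of chromosome 5 at 130011503 to 130024331. Its level was 30.5, 34.9 and 33.0 FPKM in control, 30.0, 34.5 and 33.2 with IL-4, 22.5, 22.2 and 20.1 with LPS, and 21.6, 20.5 and 20.4 with both. The LPS-exposed and unexposed samples did not overlap, while IL-4 shifted neither. The decrease was -0.58 ± 0.08 without IL-4 (adjusted p = 4.53e-05) and -0.62 ± 0.08 after it (adjusted p = 3.36e-05). Set against the median of all rows these were -0.14 and -0.21, and after median scaling they were -0.22 (adjusted p = 0.0112) and -0.27 (adjusted p = 0.00466). IL-4 alone gave -0.01 ± 0.08 (adjusted p = 0.943).

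Odc1, which encodes ornithine decarboxylase, the committing enzyme of polyamine synthesis, rose with LPS, and after IL-4 that response was smaller. The gene lies on the plus strand of chromosome 12 at 17544873 to 17551502, and 42.2% of its 50-base words recur in 15 other genes, the most in Gm7993, so its level is uncertain to the extent that reads were divided. Levels were 7.87, 8.02 and 8.11 FPKM in control, 9.93, 12.8 and 13.8 with IL-4, 14.3, 25.7 and 25.3 with LPS, and 9.49, 12.6 and 14.3 with both. All LPS samples and all IL-4 samples lay above all control samples, and the IL-4+LPS samples overlapped those with IL-4 alone. LPS added 1.29 ± 0.21 to control (adjusted p = 0.000264) but -0.01 ± 0.21 to IL-4 (adjusted p = 0.970), an interaction of -1.30 ± 0.30 (adjusted p = 0.0239). The interaction was -1.53 without replicate 1 (adjusted p = 0.000228). It was not called without any of control replicates 1, 2 and 3, IL-4 replicates 2 and 3, or LPS replicates 2 and 3 (-1.17 to -1.31, adjusted p of 0.0509 to 0.0672), nor with no filter on low values (adjusted p = 0.0694). IL-4+LPS was below LPS (-0.77 ± 0.21, adjusted p = 0.0205), although the 2 groups overlapped. This call was lost without LPS replicate 2 or 3 or IL-4+LPS replicate 1 (adjusted p of 0.0626 to 0.0793). It was also lost with no filter on low values (adjusted p = 0.0669) and in a fit of these 2 groups alone (adjusted p = 0.0894). IL-4 alone gave 0.54 ± 0.21, not called over all samples (adjusted p = 0.0753). It was called without replicate 1 (0.65, adjusted p = 0.000476), without LPS replicate 1 (adjusted p = 0.0163), after quantile normalization (0.63, adjusted p = 0.0332) and in a fit of these 2 groups alone (adjusted p = 0.0183).

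Promoter sequence was matched for 3 of the 10 genes, Ass1, Odc1 and Sat1, from RefSeq on GRCm38.p6. The 250 bases before the start are shown for Ass1 and Odc1, the genes of this set with a promoter that rose with LPS. Searched on both strands were TTCNNNNGAA (a STAT6 type motif, in 5.85% of the 32851 promoters of the table over the same window), TTCNNNGAA (a STAT type motif, 7.02%), GGGNNNNNCC (an NF-kB type motif, 45.8%), the E-box CACGTG (6.02%) and TATAAA (12.4%). Capitals mark every base covered by a match, and matches can overlap.
Ass1 promoter (chr2:31470020-31470269, plus strand): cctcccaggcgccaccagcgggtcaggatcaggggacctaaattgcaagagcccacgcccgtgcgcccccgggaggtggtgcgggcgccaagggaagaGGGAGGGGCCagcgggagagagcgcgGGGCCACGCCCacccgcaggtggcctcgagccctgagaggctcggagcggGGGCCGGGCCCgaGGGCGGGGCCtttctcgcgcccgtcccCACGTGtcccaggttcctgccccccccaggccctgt
Odc1 promoter (chr12:17544623-17544872, plus strand): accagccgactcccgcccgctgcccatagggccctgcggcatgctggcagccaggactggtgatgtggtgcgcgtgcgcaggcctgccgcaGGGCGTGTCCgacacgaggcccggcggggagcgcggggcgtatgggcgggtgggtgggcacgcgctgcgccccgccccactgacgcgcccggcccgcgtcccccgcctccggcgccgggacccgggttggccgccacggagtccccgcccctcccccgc
The Ass1 window held 6 matches to the NF-kB type letters, some of them overlapping on opposite strands, and 1 E-box 36 bases before the start (position -36). The Odc1 window held 1 match to the NF-kB type letters, and the Sat1 window held none of the 5 motifs. The NF-kB type letters are loose and occur in 45.8% of promoters, so a match does not mark an NF-kB site, and binding was not tested. Both printed windows are rich in G and C, at 75.6% and 80.0% against a median of 52.4% over all promoters.

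Azin1, which encodes antizyme inhibitor 1, a protein that frees ornithine decarboxylase from its antizyme, rose modestly with IL-4 and was lowest after IL-4 and LPS. Its row spans chromosome 15 from 38487430 to 38519266 on the minus strand, where the antisense gene Gm49077 overlaps it. Samples had 28.2, 34.3 and 35.9 FPKM in control, 41.4, 40.3 and 42.9 with IL-4, 31.2, 34.4 and 34.5 with LPS, and 24.6, 27.0 and 28.4 with both. IL-4 samples were above all others and did not overlap them. The increase with IL-4 was 0.34 ± 0.09 (adjusted p = 0.0160), which was lost without IL-4 replicate 3 (0.32, adjusted p = 0.0573). LPS gave 0.03 ± 0.09 without IL-4 (adjusted p = 0.764) and -0.62 ± 0.09 after it (adjusted p = 0.000140). The interaction was -0.65 ± 0.13 (adjusted p = 0.0115) and was called with each sample left out (adjusted p of 0.0112 to 0.0364). With median scaling LPS alone raised Azin1 by 0.39 (adjusted p = 0.00350), and the decrease after IL-4 was -0.27 (adjusted p = 0.0287). IL-4+LPS was below LPS (-0.31 ± 0.09, adjusted p = 0.0262), a call lost without LPS replicate 2 or 3 or IL-4+LPS replicate 1 or 2 (adjusted p of 0.0577 to 0.0830).

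Srm encodes spermidine synthase, which turns putrescine into spermidine, and it rose with IL-4 alone. It is found on the plus strand of chromosome 4 at 148591513 to 148594619. Control samples had 6.65, 10.8 and 11.03 FPKM and IL-4 samples 16.2, 22.7 and 25.001 FPKM. LPS samples had 6.38, 11.5 and 9.91 FPKM, and IL-4+LPS samples 8.13, 14.8 and 13.2 FPKM. Every IL-4 sample was above every other sample. The rise with IL-4 was 1.10 ± 0.27 (adjusted p = 0.0104), 2.24-fold by the group means. Adding LPS to IL-4 gave -0.79 ± 0.27 (adjusted p = 0.0236), a call lost after quantile normalization (adjusted p = 0.107) and median scaling (adjusted p = 0.190), and without IL-4 replicate 2 or 3 or IL-4+LPS replicate 1 (adjusted p of 0.0667 to 0.0918). IL-4 pretreatment in LPS-exposed cells gave 0.34 ± 0.27, not called without pairing (adjusted p = 0.393) and called with the replicate block (adjusted p = 0.00556) and without replicate 1 (0.36, adjusted p = 0.0175), the sample being higher than its LPS counterpart in 3 of 3 numbers. The interaction was -0.76 ± 0.39 (adjusted p = 0.274) and was called without replicate 1 (-0.70, adjusted p = 0.00993).

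Sat1 encodes spermidine/spermine acetyltransferase, the enzyme that tags polyamines for breakdown or export, and was the most abundant of the 10 in control samples. Its row is on the minus strand of chromosome X at 155213139 to 155216409. It stood at 247, 209 and 206 FPKM in control, 316, 232 and 229 with IL-4, 196, 167 and 177 with LPS, and 213, 193 and 189 with both. No LPS sample reached the lowest control sample and no IL-4+LPS sample the lowest IL-4 sample, but neighbouring groups in the order of means overlapped. LPS after IL-4 lowered it (-0.37 ± 0.13, adjusted p = 0.0232). This difference was -0.01 after median scaling (adjusted p = 0.977) and -0.54 after quantile normalization (adjusted p = 0.00554), it lay 0.04 above the median of all rows, and it was not called without IL-4 replicate 1 or IL-4+LPS replicate 2 or 3 (adjusted p of 0.0620 to 0.0767). LPS alone gave -0.29 ± 0.13 (adjusted p = 0.0623), which turned to 0.08 after median scaling (adjusted p = 0.612) and was called after quantile normalization (-0.46, adjusted p = 0.0122), in a fit of these 2 groups alone (adjusted p = 0.0409) and without replicate 1 (-0.27, adjusted p = 0.000713). IL-4 alone gave 0.22 ± 0.13 (adjusted p = 0.208), and IL-4 pretreatment in LPS-exposed cells gave 0.14 ± 0.13 (adjusted p = 0.458). Both were called without replicate 1 (0.15, adjusted p = 0.0174, and 0.15, adjusted p = 0.0209).

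**Figure D4:**
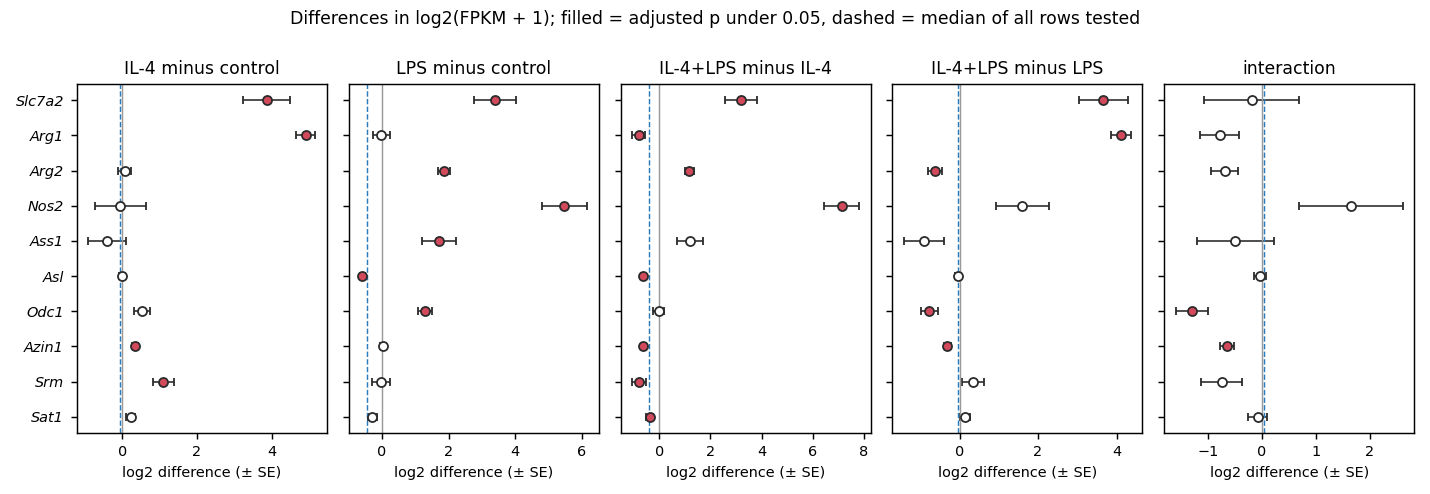
Differences in log2(FPKM + 1) of the 10 genes in the 5 comparisons, as points with SE bars from limma, filled where the adjusted p was under 0.05, with the median of all 11191 rows as a dashed line. Slc7a2 lies far to the right of 0 in the first 4 panels, Arg1 only where IL-4 was added, and Nos2 most where LPS was added (5.47 and 7.13), while Odc1 and Azin1 are the filled points of the interaction.

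Across the 10 genes the order of the 4 groups differed from gene to gene. Arg1, Azin1, Srm and Sat1 had their highest mean with IL-4, Arg2, Ass1 and Odc1 with LPS, Nos2 and Slc7a2 with both, and Asl in control. The top group did not overlap the next one for Arg2, Odc1, Slc7a2, Azin1 and Srm, and it did for Arg1, Nos2, Ass1, Asl and Sat1. The lowest of the 12 values and the highest spanned 0.200 to 289 FPKM for Slc7a2 but only 167 to 316 FPKM for Sat1 and 20.1 to 34.9 FPKM for Asl.

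The rest of the arginine and polyamine pathways was read from a list of 51 further genes, of which 37 passed the filter. With IL-4 alone 10 of the 37 were higher and 10 lower, where 16% and 21% of all rows were. LPS lowered 27 and raised 4 without IL-4, against 57.7% and 16.9% of all rows, and lowered 26 and raised 3 after it, against 57.9% and 15%. With median scaling these counts were 19 and 6, and 14 and 6. Over all 11191 rows that setting gave 4454 lower and 2966 higher without IL-4, and 4057 and 2629 after it. In LPS-exposed cells 10 were higher with IL-4 pretreatment and 6 lower, against 15% and 15.8% of all rows. The interaction was called upward in 1 and downward in 1, against 4.58% and 4.63%. The median difference with LPS was -0.64 for these genes and -0.44 for all rows without IL-4, and -0.56 and -0.41 after it. Below the filter were the urea cycle genes Otc, Cps1 and Nags, the agmatinase gene Agmat, the synthases Nos1 and Nos3, both subunits of the nitric oxide receptor (Gucy1a3 and Gucy1b3), Pycr1, Gchfr, Pcbd1, Ddah1, Oaz3 and Amd1. Otc, Cps1, Nags, Agmat, Nos1, Pcbd1 and Ddah1 were listed at 0 in all 12 samples.

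Around nitric oxide synthesis, Gch1 rose with LPS. It encodes GTP cyclohydrolase 1, the rate-limiting enzyme for the synthase cofactor tetrahydrobiopterin. Its level was 6.78, 6.76 and 7.07 FPKM in control and 8.99, 7.36 and 7.26 with IL-4. It was 49.5, 50.5 and 55.4 FPKM with LPS and 44.7, 48.4 and 45.2 with both. LPS raised it by 2.74 ± 0.08 without IL-4 (adjusted p = 2.49e-09) and by 2.41 ± 0.08 after it (adjusted p = 4.72e-09), and IL-4+LPS differed from LPS by -0.16 ± 0.08 (adjusted p = 0.167). The replicate 1 samples of Gch1 did not stand apart as those of Nos2 did. The next enzymes of cofactor synthesis moved the other way with LPS, with -0.87 ± 0.15 for Pts and -1.12 ± 0.15 for Spr, and Qdpr, which regenerates the cofactor, rose by 0.83 ± 0.14 with IL-4 and fell with LPS (-0.67 ± 0.14). Ddah2, which degrades the synthase inhibitor asymmetric dimethylarginine, fell with IL-4 (-1.38 ± 0.18, adjusted p = 0.000218) and with LPS (-1.17 ± 0.18, adjusted p = 0.000151) and was at 0.579 ± 0.243 FPKM with both, against 5.34 ± 1.16 in control. Nosip and Nostrin, whose products bind the endothelial synthase encoded by Nos3, itself below the filter here, fell with LPS (-1.30 ± 0.12 and -1.73 ± 0.17).

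Among genes that use arginine or ornithine for other products, Gatm rose with IL-4. It encodes the amidinotransferase that starts creatine synthesis from arginine and yields ornithine. It rose from 14.8, 17.0 and 14.7 FPKM in control to 60.6, 65.1 and 60.4 with IL-4. With LPS it was 9.73, 9.76 and 9.01 FPKM, and with both 38.8, 43.0 and 41.3 FPKM. All samples given IL-4 were above all others. The difference was 1.94 ± 0.07 for IL-4 against control (adjusted p = 4.08e-08) and 2.001 ± 0.07 for IL-4+LPS against LPS (adjusted p = 3.69e-08), with an interaction of 0.06 ± 0.10 (adjusted p = 0.764). Adc, now named Azin2, which encodes antizyme inhibitor 2, was a lower transcript that went from 0.152 ± 0.105 FPKM with LPS to 1.02 ± 0.219 with both, a difference of 0.81 ± 0.11 (adjusted p = 0.000316) and 6.69-fold by the group means. Adc passed the filter only through samples given IL-4, so this difference is partly built into the filter. In the proline branch 4 of 4 tested genes fell with LPS, where 57.7% of all rows did, with -1.43 ± 0.15 for Pycrl, now named Pycr3, and Aldh18a1 rose with IL-4 (0.73 ± 0.13, adjusted p = 0.00153). All 3 arginine-sensing genes fell with LPS, against the same 57.7% of all rows, with -1.17 ± 0.16 for Gatsl3 (now Castor1), -1.68 ± 0.11 for Gatsl2 (now Castor2) and -1.33 ± 0.12 for Slc38a9.

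In polyamine metabolism beyond the 10 genes, genes of both synthesis and breakdown changed. Amd2, whose row holds the reads of the S-adenosylmethionine decarboxylase locus shared with Amd1, was at 6.77 ± 0.382 FPKM in control and 10.9 ± 0.622 with IL-4, a rise of 0.61 ± 0.11 (adjusted p = 0.00186). It fell with LPS to 3.43 ± 0.738 FPKM and was 3.94 ± 0.369 FPKM with both. Sms, spermine synthase, rose with IL-4 by 0.30 ± 0.09 (adjusted p = 0.0223). Smox, spermine oxidase, went from 27.4 ± 1.40 FPKM to 12.8 ± 0.696 with IL-4 and from 33.5 ± 2.38 with LPS to 13.9 ± 0.488 with both, the last a difference of -1.21 ± 0.07 (adjusted p = 9.57e-07). Paox, the oxidase acting on acetylated polyamines, fell with LPS (-1.67 ± 0.12), and Atp13a2, a lysosomal polyamine exporter, went from 113 ± 5.07 FPKM in control to 26.3 ± 0.646 with LPS and from 66.1 ± 4.14 with IL-4 to 21.6 ± 2.01 with both. Its interaction of 0.49 ± 0.11 (adjusted p = 0.0175) was lost without LPS replicate 3 (adjusted p = 0.0503). Eif5a, the translation factor that carries hypusine made from spermidine, rose from 248 ± 58.6 to 527 ± 107 FPKM with IL-4 (1.09 ± 0.24, adjusted p = 0.00577) and was 565 ± 126 with both against 262 ± 53.9 with LPS (1.10 ± 0.24, adjusted p = 0.00635). Oaz1, the antizyme that blocks ornithine decarboxylase, was called lower with LPS (-0.36 ± 0.15, adjusted p = 0.0494), but 95.7% of its locus is shared with the row Oaz1-ps and their sum was not called (-0.36 ± 0.21, adjusted p = 0.141).

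**Figure D5:**
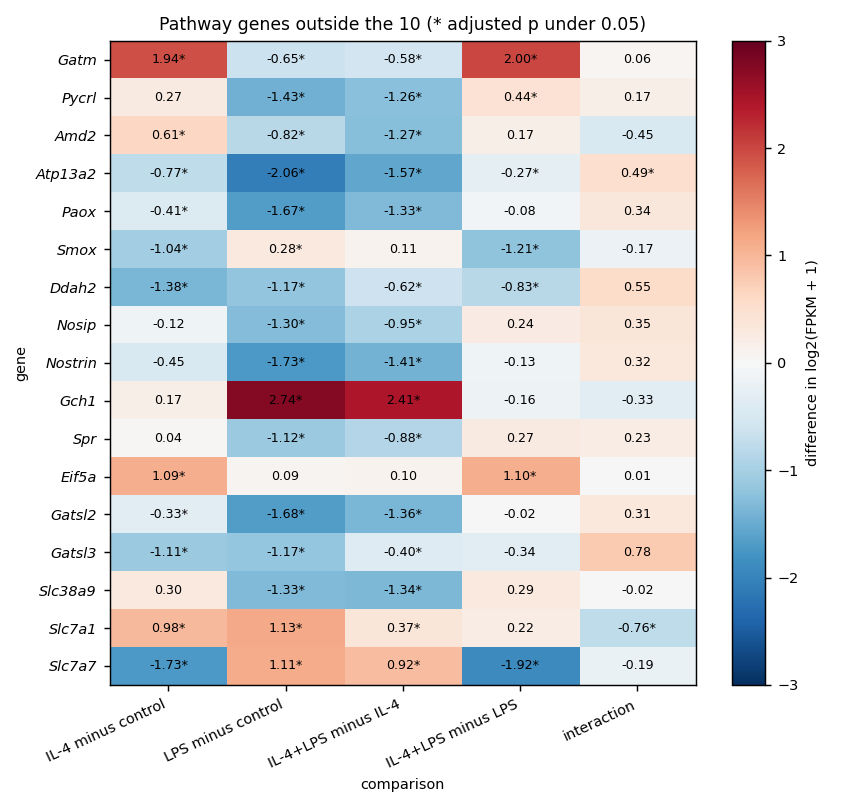
Differences in log2(FPKM + 1) of the 17 listed pathway genes that were called with at least a 2-fold change in any of the 5 comparisons, one row per gene and one column per comparison, red for higher and blue for lower, with an asterisk for an adjusted p under 0.05. Gatm is red in both columns where IL-4 was added (1.94 and 2.001) and Gch1 in both where LPS was added (2.74 and 2.41), whereas most other genes are blue with LPS.

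Genes with the most similar pattern were ranked for each of the 10 by Pearson r of log2(FPKM + 1) over the 12 samples, among rows with a mean of at least 1 FPKM. These values describe the likeness and carry no test, since the samples share the same 4 treatments and the same replicate 1. Closest to Arg1 was Mt3 (r = 0.994), followed by Cldn11 and Pdcd1lg2 (both r = 0.994). Closest to Nos2 were Lad1 (r = 0.998), 1110038F14Rik and Stat5a (both r = 0.996). Slc7a2 was followed most closely by Cish (r = 0.997), a suppressor of cytokine signalling, which had mean levels of 0.709, 20.7, 15.0 and 146 FPKM in the order control, IL-4 alone, LPS alone and both, and then by F10 (r = 0.985) and Ccl7 (r = 0.979). Odc1 was nearest to Map3k6 (r = 0.943), Map2k4 (r = 0.939) and Pprc1 (r = 0.938), Srm to Nop16 (r = 0.974), Elovl1 (r = 0.964) and Ywhab (r = 0.962), and Azin1 to Xbp1 (r = 0.974), Cnbp (r = 0.970) and Hnrnpf (r = 0.944). Arg2 was nearest to Fzd1, Dusp11 (both r = 0.979) and Trim13 (r = 0.978), Asl to Dcps (r = 0.997), Angptl4 and Pigq (both r = 0.993), and Sat1 to Rps3a1 (r = 0.959), Lamp2 (r = 0.955) and BC028528 (r = 0.952). The Ass1 row, whose reads are divided with Gm5424, had the weakest best match, Creb5 (r = 0.921), followed by Rpl24 (r = 0.865) and Klf3 (r = 0.864).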

How the data were processed

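The authors prepared poly-A selected, unstranded TruSeq libraries, sequenced them as paired reads and mapped them to mm10. The submitters' processing notes name TopHat2 2.0.7 and Cufflinks 2.0.2, and the gene annotation is not given in the sources used here. The deposited tables hold FPKM per gene and sample with no stated scaling between samples, so a shift in RNA composition moves every gene, and no fragment counts were used, so the absolute depth is unknown and the error comes from the spread between replicates. Rows of the 12 tables were matched by symbol, position and start site. In R 4.3.3, limma 3.58.1 (eBayes with trend) fitted 1 mean per group to log2(FPKM + 1) of all 12 samples, which understates changes of low genes, with Benjamini-Hochberg adjustment within each contrast. It was tested on simulated data. The 10 genes and all lists were chosen with earlier results of these data known. Genes named beyond the 10 were pathway genes called with at least a 2-fold change in any contrast, plus the 3 nearest patterns per gene, and Adc, Slc3a2, Pts, Qdpr, Aldh18a1, Sms and Oaz1, which were added after their values were seen. Alternatives were a pseudocount of 0.1, no or a stricter filter, 2 scalings, no trend, only the compared groups, the replicate block, unadjusted p, a 2-fold minimum, replicates 2 and 3 only, each sample left out, and, chosen after seeing the data, sums over rows at one locus. Deviations from group means of same-numbered samples had r of 0.119 to 0.386 between LPS and IL-4+LPS, where all 3 pairs exceeded 0.1, so the blocked value is given there. For the other pairs of groups r was as low as 0.00236, and between IL-4 and IL-4+LPS it was 0.0758 to 0.176. Pairing by number is not stated in the labels, so paired and blocked values are conditional on it. Sequences were read from GENCODE vM21 and RefSeq with Python 3.11.15.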

Additional observations from a re-analysis of the deposited data

Results flagged for a closer look

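The response to LPS differed with and without IL-4, by limma's test of the interaction itself on log2(FPKM + 1), for 4 genes of the set and of the wider pathway. Called above 0 and below 0 were 0 and 2 of the 10 genes, and 1 and 1 of the 37 pathway genes. Of all rows 4.58% and 4.63% were called in these directions. The rise with LPS was smaller after IL-4 for Odc1 (difference -1.30, adjusted p = 0.0239) and Slc7a1 (-0.76, adjusted p = 0.0256). Azin1 was called lower with LPS after IL-4 and was not called without it (-0.65, adjusted p = 0.0115). For Atp13a2, which fell with LPS in both settings, the decrease was smaller after IL-4 (0.49, adjusted p = 0.0175). Leaving out 1 sample ended the call for Odc1, Slc7a1 and Atp13a2, as given above, and for Azin1 it did not.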

How the results depend on the processing

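Over the 10 genes, the 5 comparisons and the alternatives tried, 1190 values were recomputed. Of these 1093 kept their side of the threshold, 55 were no longer called, 42 became called and 0 reversed a called direction. The 1093 include differences called in neither setting, whose sign could change. An example is Sat1 with LPS, at -0.29 as reported and 0.08 after median scaling. For the 17 pathway genes named by size the numbers were 2023, 1919, 72, 32 and 0. For LPS against control, 2 of the 10 genes were lower (1 as reported) with quantile normalization, only the compared groups, the replicate block, unadjusted p or replicates 2 and 3 only, and 0 with a 2-fold minimum. Of all 11191 rows 6462 were lower as reported, and 4326, 6364, 7013, 6588, 7032 and 2121 in these settings, in the same order. For LPS added to IL-4, the 5 lower became 2 with no filter or median scaling, 3 with quantile normalization or only the compared groups, and 0 with a 2-fold minimum. Of all rows 6474 of 11191 were lower as reported and 6518 of 23847 with no filter. In the other settings 4057, 4173, 6248 and 1691 of 11191 were lower, in the same order. For IL-4+LPS against LPS, the 2 higher became 4 with the block and 5 with replicates 2 and 3 only, and the 3 lower became 0 with no filter or a 2-fold minimum. Of all 11191 rows 1682 were higher as reported, 2287 with the block and 2351 with replicates 2 and 3 only. Lower were 1771 as reported, 1514 of 23847 with no filter and 332 with a 2-fold minimum. In the interaction, with replicates 2 and 3 only, 1 was higher and 4 lower, and the 2 lower became 4 with the block and 1 with no filter or a 2-fold minimum. All 11191 rows gave 512 higher and 518 lower as reported, and 1481 and 1386 with replicates 2 and 3 only. Lower were 1095 with the block, 457 of 23847 with no filter and 155 with a 2-fold minimum.

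Of the pathway genes, a 2-fold minimum left 2 higher and 4 lower with IL-4, 10 lower with LPS, 1 higher and 7 lower with LPS added to IL-4, 2 higher and 2 lower for IL-4+LPS against LPS, and 0 in either direction of the interaction. Of all 11191 rows it left 309 and 391, 2121 lower, 842 and 1691, 303 and 332, and 146 and 155, in the same order. With LPS added to IL-4, 5 were higher and 16 lower with quantile normalization, 6 and 14 with median scaling, and 6 higher with the block. All rows gave 2461 and 4173, 2629 and 4057, and 1927 higher, in the same order. For IL-4+LPS against LPS 5 pathway genes were higher with only the compared groups, where 1316 of all rows were. In the interaction 3 pathway genes were higher with the block, 2 with unadjusted p and 2 with replicates 2 and 3 only, and 3 were lower with quantile normalization or unadjusted p and 0 with no filter. All rows gave 1145, 1439 and 1481 higher, and 647 and 1264 lower, and 457 of 23847 lower with no filter, in the same order. The Arg1 to Nos2 log2 ratio differences were 7.68, -7.93, -10.55 and 5.05 with a pseudocount of 0.1.

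Leaving out 1 sample at a time, the 10 genes gave 1 to 2 lower for LPS against control, 3 to 5 lower for LPS added to IL-4, 0 to 3 lower for IL-4+LPS against LPS and 1 to 2 lower in the interaction. All 11191 rows gave 5990 to 6557, 5950 to 6572, 1332 to 2064 and 334 to 652 lower, in the same order. The pathway genes gave 6 to 10 higher for IL-4+LPS against LPS, where all rows gave 1327 to 1761, and 0 to 1 lower in the interaction. The numbers are not shown to pair the samples in any comparison. With the replicate block, the calls gained among the 10 genes outside the comparison of IL-4+LPS with LPS were Odc1 and Sat1 with IL-4 (adjusted p of 0.0104 and 0.0203), Sat1 with LPS (0.00273) and the interactions of Arg1 (0.0310) and Srm (0.00202). Summing rows at one locus, chosen after seeing the data, gave 4 of the 10 genes higher for LPS added to IL-4, 4 lower for IL-4+LPS against LPS and 3 lower in the interaction. Of all 11189 rows left, 1683, 1771 and 519 were called in these directions. A fit of only the compared groups was not run for the interaction, which uses all 4. The causes of these changes were not tested. No fragment counts were used, so counting error could not be given.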
